A study of Homo sapiens with 24 samples.

Results

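Non-homologous end joining is the pathway that rejoins the ends of a broken DNA molecule without a copy to read from. It is not restricted to 1 phase of the cell cycle. The Ku heterodimer (XRCC6 and XRCC5) binds the ends and recruits the kinase DNA-PKcs (PRKDC). Nucleases and polymerases then trim and fill the ends, and ligase IV with its partner XRCC4 seals them. Cells that cannot complete this pathway are known to be sensitive to ionising radiation. The 10 genes described here were XRCC6, XRCC5, PRKDC, DCLRE1C, POLL, POLM, LIG4, XRCC4, NHEJ1 and TP53BP1. They were taken by symbol from the 48162 genes of the count table, and each symbol matched 1 gene.

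RNA-seq was made of PPC1 cells, a prostate cancer cell line, in 4 conditions with 6 libraries each, 24 in all. Parental cells were neither irradiated nor filtered. Polyploid giant cancer cells (PGCC) came from PPC1 cells given 8 Gy on day 2, and were the cells held back by a 20 micron filter at harvest on day 5. Each population was sequenced without and with 5 μM LCL521, a pro-drug inhibitor of acid ceramidase, given for 5 hours. All 4 conditions were harvested together in each of 6 independent experiments. PGCC and parental cells thus differed in irradiation and in the size filter, and the parts of the 2 in any difference cannot be told apart. In bulk RNA, fewer cells of a type and less RNA per cell cannot be told apart either.

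Libraries held 14835246 to 19906601 counts on genes. The 4 epithelial markers listed (KRT8, KRT18, EPCAM and CDH1) were present in each condition, while of the prostate luminal markers reported here KLK3, KLK2 and TMPRSS2 had at most 3 counts in any library. Levels are given in CPM, a count divided by the library's TMM-scaled total. HOXB13 was expressed, at 570 to 882.5 CPM in parental cells and 307.5 to 548 CPM in PGCC, which did not overlap. Summed leukocyte markers ran from 0.406 to 2.74 CPM in parental cells and from 2.34 to 4.03 in PGCC, with CD3E and CD68 at 3 counts or fewer. Summed fibroblast markers lay between 49.8 and 133 CPM and between 79.1 and 205 CPM, and endothelial ones at 1.34 CPM or below in every condition. The part of these levels in the results was not tested. Of 12 genes of DNA replication and proliferation, 10 were higher and 1 was lower in PGCC, with a summed level of 747 to 1256 CPM in parental cells and 2082 to 2350 CPM in PGCC. The part of that difference in the results below was not tested. The libraries numbered 4 and 5 stood apart from the others in all 4 conditions on the second principal component, and values without them are given where they change a call or move an estimate by much.

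Between parental cells and PGCC, 3 of the 9 end joining genes with enough counts to test had an adjusted p-value under 0.05 in edgeR's quasi-likelihood test. XRCC4 was higher in PGCC, and XRCC5 and POLM were lower. The same threshold was passed by 47.4% of the 13812 genes tested, 23.1% higher and 24.3% lower. In this run the share of end joining genes called was thus not above that of genes in general, and other runs are given at the end. Of the called genes 48.7% were higher, against 60.2% when libraries were scaled by their totals and 37.9% with a correction for gene length. The median log2 fold change was -0.18 over the 9 genes and -0.03 over all genes. When both populations had received LCL521, in 12 other libraries, 2 of the 9 passed: XRCC4 was again higher and XRCC5 again lower. Those libraries came from the same experiments as the ones without LCL521, so the comparison with LCL521 is not an independent repeat. There the background was 48.9% of 13818 genes, and the median log2 fold change was -0.19 over the 9 genes and -0.01 over all genes.

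Each condition has libraries numbered 1 to 6 in the labels, and the deviations of same-numbered libraries from the condition means went together. With the replicate number as a block, 5 of the 9 genes were called in each comparison, where the background was 56.2% and 56.3%. Without LCL521 the added genes were PRKDC, which was higher, and POLL, which was lower. With LCL521 they were PRKDC, POLL and TP53BP1, and TP53BP1 was lower. With the block POLM had an edgeR adjusted p of 0.0144 without LCL521 and 0.113 with it.

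**Figure D1:**
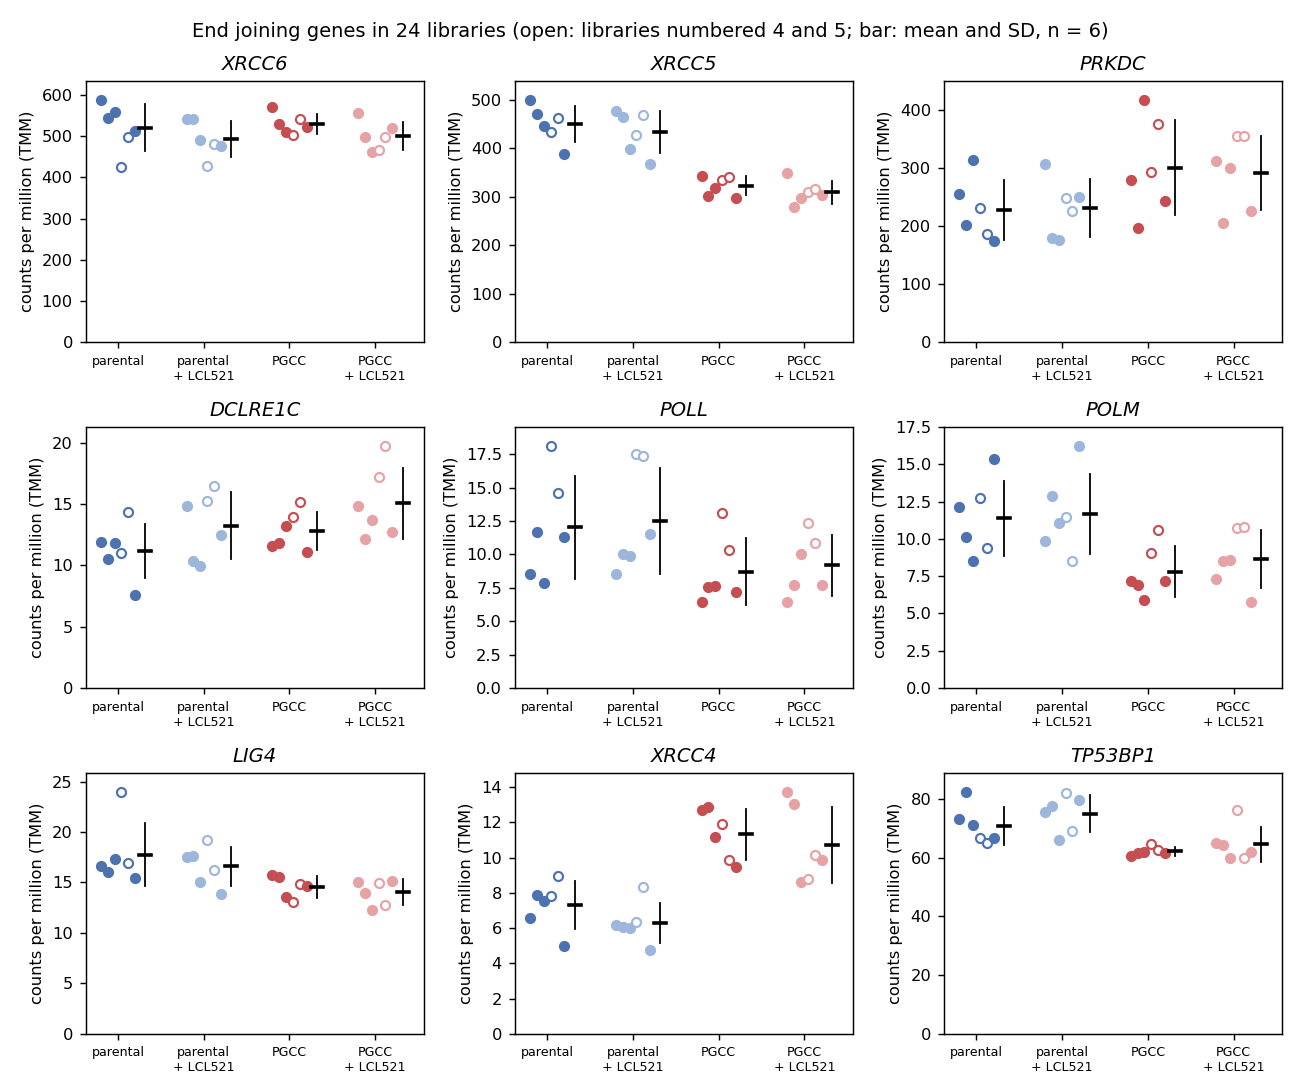
CPM of 9 end joining genes in each of 24 libraries, by condition, on axes that start at 0, with the mean and SD of 6 libraries as a bar and the libraries numbered 4 and 5 as open circles. Without LCL521, XRCC5 lay at 389 CPM or above in parental cells and at 343 or below in PGCC, and XRCC4 lay at 8.98 or below and 9.47 or above.

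The 9 genes differed widely in level. Per kilobase of gene length, XRCC6 and XRCC5 were the most abundant in parental cells, at 192 ± 20.8 and 120 ± 9.98 CPM per kilobase (SD, n = 6), and the libraries of XRCC6, XRCC5 and PRKDC did not overlap in this order. PRKDC followed at 16.8 ± 3.81 and TP53BP1 at 11.2 ± 1.02, and these 2 overlapped. LIG4, XRCC4, POLL, POLM and DCLRE1C lay between 4.32 and 3.05 CPM per kilobase, and each overlapped its neighbour in the order. In PGCC the order of the first 4 was the same, without overlap between any 2 neighbours, and XRCC4 came next at 6.68 ± 0.846, above LIG4 at 3.55 ± 0.264 with no overlap.

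The Ku subunits, which bind DNA ends as a pair, differed from each other. XRCC5, which encodes Ku80 (chr2:216972187-217071026, hg19), had 389 CPM in the lowest, 454 in the median and 499 in the highest library of parental cells, and 297.5, 326 and 343 CPM in PGCC. Every PGCC library lay below every parental library. The level in PGCC was 0.720 of that in parental cells, a log2 fold change of -0.47 (SE 0.07, edgeR adjusted p = 7.6e-05). Non-overlapping groups were found for 26.8% of all genes tested. With LCL521 the libraries ranged from 367.5 to 476 CPM in parental cells and from 279 to 350 CPM in PGCC, again without overlap, at a log2 fold change of -0.46 (SE 0.08, edgeR adjusted p = 1.9e-04). XRCC5 was lower in PGCC in 6 of 6 same-numbered pairs in each comparison, and its call held under every alternative run.

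XRCC6, which encodes Ku70 (chr22:42017123-42060044), had 426, 528 and 587 CPM in the lowest, median and highest parental library, and 504, 527 and 572 CPM in PGCC. The PGCC libraries lay within the range of the parental ones. It differed by 0.03 on the log2 scale (95% interval -0.13 to 0.19, edgeR adjusted p = 0.753) and with LCL521 0.05 (-0.10 to 0.20, adjusted p = 0.602). The sign turned without libraries 4 and 5, at -0.03, and under the gene length correction, at -0.04. In both comparisons the 95% interval of XRCC6 held 0, and that of XRCC5 lay wholly below it.

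A ratio of 2 transcripts within a library does not depend on how libraries are scaled. Per length, the ratio of XRCC6 to XRCC5 had a geometric mean of 1.604 in parental cells (1.36 to 1.83) and 2.28 in PGCC (2.09 to 2.44). No parental library reached the lowest PGCC library. The difference was 0.51 on the log2 scale, positive in 6 of 6 pairs (two-sided exact permutation test over 924 divisions of the libraries, p = 0.0022, adjusted p = 0.0035 over the 8 ratio tests). With LCL521 the geometric means were 1.58 and 2.25 and the adjusted p from the same exact test was 0.0035. With same-numbered pairs kept, an exact test over 64 sign changes gave an adjusted p of 0.0417 in each comparison. That paired value was the same for the ratios of PRKDC to XRCC5 and of XRCC4 to LIG4 below. Groups without overlap, or pairs that all go in 1 direction, give the lowest p that these tests can reach. The libraries numbered 4 and 5 had the lowest ratios of parental cells, 1.36 and 1.497, and without them the geometric means were 1.70 and 2.35, still without overlap (exact adjusted p = 0.0457).

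PRKDC encodes DNA-PKcs, the kinase that Ku holds at the ends (chr8:48685669-48872743, minus strand). Of the 10 genes it had the largest gene length listed with the counts, 13508 bases, which is shorter than its span. Its libraries were widely spread, from 175 through a median of 216 to 313 CPM in parental cells and from 195.8 through 285 to 416 CPM in PGCC. The groups overlapped, and the coefficient of variation was 22.6% and 27.4%. It was higher in PGCC in 5 of 6 pairs, with pair differences between -0.04 and 1.01 on the log2 scale. The estimated log2 fold change was 0.41 (SE 0.18, edgeR adjusted p = 0.0757) and passed the threshold with the replicate block (adjusted p = 0.0164). With LCL521 it was 0.37 (SE 0.16, edgeR adjusted p = 0.0700, with the block 0.0261). The pairs numbered 4 and 5 averaged 0.67 and the other 4 pairs 0.24 without LCL521. Without libraries 4 and 5 the estimates were 0.28 and, with LCL521, 0.23 (edgeR adjusted p = 0.274 and 0.293). The correction for gene length left 0.23 and 0.22, at edgeR adjusted p-values of 0.136 and 0.102, and with scaling by library totals they were 0.51 and 0.42 and passed (0.0364 and 0.0495).

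Relative to XRCC5 the difference in PRKDC was wider, but this ratio also takes in the lower level of XRCC5 in PGCC. Its p-value is thus no test of PRKDC alone. The ratio per length had a geometric mean of 0.138 in parental cells (0.112 to 0.196) and 0.251 in PGCC (0.180 to 0.365), and was higher in PGCC in 6 of 6 pairs (exact permutation test, adjusted p = 0.0058). The ranges overlapped. With LCL521 they did not, at geometric means of 0.146 and 0.258 (exact adjusted p = 0.0035). Without libraries 4 and 5 the first of these no longer passed (difference 0.76 on the log2 scale, exact adjusted p = 0.0653), while the second did (exact adjusted p = 0.0457).

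**Figure D2:**
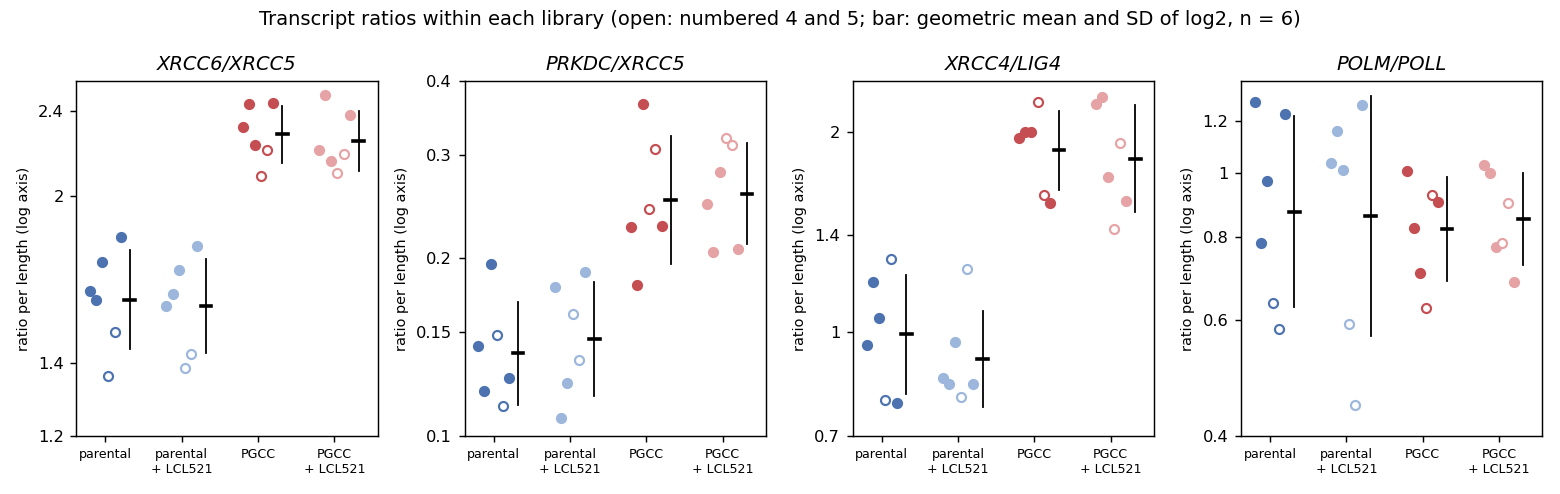
Ratio of 2 transcripts per length in each library, on a log axis, by condition, with the geometric mean and the SD of the log2 ratio of 6 libraries as a bar and libraries 4 and 5 open. Without LCL521, the ratio of XRCC6 to XRCC5 was at most 1.83 in parental cells and at least 2.09 in PGCC, that of XRCC4 to LIG4 was at most 1.29 and at least 1.565, and that of POLM to POLL overlapped.

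The end processing genes were expressed at a low level, at 95 to 328 counts per library. POLM encodes polymerase mu, which can fill ends that have little or no paired template (chr7:44111846-44122139, minus strand). It had 8.49, 11.1 and 15.4 CPM in the lowest, median and highest parental library and 5.92, 7.19 and 10.6 CPM in PGCC. The groups overlapped, and 5 of 6 pairs were lower in PGCC. The log2 fold change was -0.53 (SE 0.17, edgeR adjusted p = 0.0207). The call was lost without library number 1, 2 or 6 (adjusted p = 0.0724, 0.0517 and 0.0866) and with scaling by library totals (adjusted p = 0.0590). With LCL521 the log2 fold change was -0.41 (SE 0.18, edgeR adjusted p = 0.0750). There DESeq2 called it (adjusted p = 0.0422), as edgeR did with the length correction (adjusted p = 0.0221) and with all 24 libraries in 1 fit (0.0467), and it was -0.70 without libraries 4 and 5 (edgeR adjusted p = 0.0065), whose pairs differed by 0.12 on average against -0.72 in the other 4 pairs. Without library number 6 it was -0.22 (edgeR adjusted p = 0.277) and without number 5 -0.56 (0.0248). The change of POLM between populations differed by 0.10 with and without LCL521 (95% interval -0.42 to 0.63), which did not pass.

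POLL encodes polymerase lambda, the other gap-filling polymerase of the pathway (chr10:103338639-103348027, minus strand). It had 7.89 to 18.1 CPM in parental cells, with a median of 11.5, and 6.45 to 13.1 CPM in PGCC, with a median of 7.59. Libraries 4 and 5 held the highest values in each of the 4 conditions, 0.56 to 0.81 above the others on the log2 scale and without overlap. Within pairs POLL was lower in PGCC in 6 of 6. Its log2 fold change was -0.46 (SE 0.22, edgeR adjusted p = 0.106) and passed with the replicate block (adjusted p = 0.0070) and without libraries 4 and 5 (-0.43, adjusted p = 0.0341). The gene length correction also brought POLL past the threshold without LCL521 and not with it (edgeR adjusted p = 0.0491 and 0.0642). With LCL521 the log2 fold change was -0.42 (SE 0.22, adjusted p = 0.122, with the block 0.0145 and without libraries 4 and 5 0.146 by edgeR). The ratio of POLM to POLL did not pass, at geometric means of 0.875 and 0.822 without LCL521 (exact adjusted p = 0.789) and 0.861 and 0.853 with it (exact adjusted p = 0.972). A p above the threshold does not show equal ratios, and without libraries 4 and 5 the log2 differences were -0.30 without LCL521 and -0.38 with it (exact adjusted p = 0.200 and 0.0653).

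DCLRE1C encodes Artemis, the nuclease that DNA-PKcs activates to open hairpins and trim ends (chr10:14939358-14996431, minus strand). Its levels overlapped, at 7.61 to 14.3 CPM in parental cells and 11.1 to 15.1 CPM in PGCC. On the log2 scale the fold change was 0.20 (95% interval -0.11 to 0.50, edgeR adjusted p = 0.274) and with LCL521 0.21 (-0.13 to 0.55, adjusted p = 0.284). Of the 3 processing genes, the 2 polymerases had negative and the nuclease positive estimates in both comparisons.

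In the ligation step XRCC4 rose in PGCC. XRCC4 is the scaffold that binds and stabilises ligase IV (chr5:82373317-82649606). It had 4.98 CPM in the lowest, 7.68 in the median and 8.98 in the highest parental library, and 9.47, 11.5 and 12.85 CPM in PGCC. All 6 PGCC libraries lay above all 6 parental libraries. The log2 fold change was 0.64 (SE 0.15, edgeR adjusted p = 0.0026), or 1.56 times the parental level. With LCL521 the ranges were 4.77 to 8.34 CPM and 8.63 to 13.7 CPM, and the log2 fold change was 0.79 (SE 0.16, edgeR adjusted p = 9.0e-04). The call held under every alternative run. The difference averaged 0.79 on the log2 scale in pairs 1, 2, 3 and 6 and 0.37 in pairs 4 and 5, and with LCL521 0.96 and 0.38.

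LIG4, the ligase itself (chr13:108859787-108870716, minus strand), had 15.4, 16.8 and 24.0 CPM in the lowest, median and highest parental library and 13.0, 14.7 and 15.7 CPM in PGCC. The groups overlapped only between 15.4 and 15.7 CPM. Its log2 fold change was -0.28 (SE 0.12, edgeR adjusted p = 0.0672) and with LCL521 -0.21 (SE 0.10, adjusted p = 0.102). Without libraries 4 and 5 it was -0.12 (adjusted p = 0.339 by edgeR). The highest parental value was that of library 4. The gene length correction brought both past the threshold, at edgeR adjusted p-values of 0.0160 and 0.0390. With all 24 libraries in 1 fit LIG4 passed without LCL521 and not with it (edgeR adjusted p = 0.0285 and 0.0633). With LCL521 it also passed when number 6 was left out (edgeR adjusted p = 0.0428). The ratio of XRCC4 to LIG4 per length was 0.993 in parental cells (0.785 to 1.29) and 1.875 in PGCC (1.565 to 2.215), without overlap and higher in 6 of 6 pairs (exact permutation test, adjusted p = 0.0035). With LCL521 it was 0.912 and 1.82 (exact adjusted p = 0.0035). Without libraries 4 and 5 the first difference was 0.92 on the log2 scale (exact adjusted p = 0.0457).

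NHEJ1 encodes XLF, the XRCC4-like factor that bridges the ends (chr2:219940039-220025587, minus strand). It had 0 to 6 counts per library and was removed by edgeR's filter in each comparison. Over 6 libraries the parental cells held 4 counts without and 13 with LCL521, and the PGCC 10 and 12. The span that the count table lists for SLC23A3 covers 99.99% of the NHEJ1 span on the same strand, while the 2 genes do not overlap in GENCODE release 29 (GRCh38), and reads that fall on 2 genes are set aside in default HTSeq counting. The part of that overlap in the low counts was not tested, and a ratio of NHEJ1 to LIG4 was not computed.

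The upstream stretches of POLM, LIG4 and XRCC4 are shown because POLM and XRCC4 passed the test in opposite directions and LIG4 is the partner of XRCC4. They come from RefSeq (GRCh38.p14), whose table held 8 of the 10 genes in 15 windows of 250 bases before a start. Both strands were searched for the GC box GGGCGG, for CCAAT and for the E2F forms TTTCCCGC, TTTCGCGC, TTTGCCGC and TTTGGCGC, and matches are in capitals. The stretch of POLM, at chr7:44082541-44082780 on the minus strand, and that of LIG4, at chr13:108215537-108215786 on the minus strand, lie outside the exons of GENCODE release 29. The stretch of XRCC4 is the 30 bases around its GC box at chr5:83077442-83077471 on the plus strand, all of them within an annotated exon. The whole window of POLM held 4 GC boxes, of which the stretch outside exons keeps 1, and of the 5 windows of LIG4 2 held a GC box, 2 held CCAAT and 1 held neither, so the stretches are no contrast between the genes.
POLM: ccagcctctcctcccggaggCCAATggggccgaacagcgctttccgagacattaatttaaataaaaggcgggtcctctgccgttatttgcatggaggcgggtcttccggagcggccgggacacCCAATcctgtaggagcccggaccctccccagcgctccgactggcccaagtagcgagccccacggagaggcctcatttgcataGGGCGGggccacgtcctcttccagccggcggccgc
LIG4: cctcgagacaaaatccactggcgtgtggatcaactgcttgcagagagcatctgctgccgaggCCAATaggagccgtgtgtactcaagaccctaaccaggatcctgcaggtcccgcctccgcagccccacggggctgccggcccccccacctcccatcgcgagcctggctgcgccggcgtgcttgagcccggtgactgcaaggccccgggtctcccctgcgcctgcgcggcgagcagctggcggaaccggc
XRCC4: gcctaccaagacGGGCGGttaagacactag
The E2F forms were in 2.79% of all 35116 windows in the table and in 0 of the 15 windows of members. The GC box was in 42.6% and CCAAT in 32.01% of all windows. These are matches of letters in the windows searched, not sites of binding.

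TP53BP1 encodes 53BP1, a chromatin protein that protects ends from resection and so favours end joining (chr15:43699407-43802926, minus strand). It had 65.0, 68.9 and 82.4 CPM in the lowest, median and highest parental library and 60.5, 61.9 and 64.85 CPM in PGCC. The groups did not overlap, though their nearest libraries were at 65.0 and 64.85 CPM, and 6 of 6 pairs were lower. The log2 fold change was -0.18 (SE 0.07, edgeR adjusted p = 0.0520, with the block 0.0528). With LCL521 it was -0.19 (SE 0.08, adjusted p = 0.0686, and 0.0232 with the block, both by edgeR), and the groups overlapped. Scaling by library totals left -0.09 without LCL521 (edgeR adjusted p = 0.368), and the gene length correction gave -0.29 and -0.28 (edgeR adjusted p = 0.0056 and 0.0068). DESeq2 called it in both (adjusted p = 0.0331 and 0.0277), as edgeR did without libraries 4 and 5 (0.0262 and 0.0386). In all, 3 of the 9 genes did not overlap between parental cells and PGCC, where 26.8% of all genes tested did not. With LCL521 it was 2 of 9, where 28.1% of all genes did not.

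**Figure D3:**
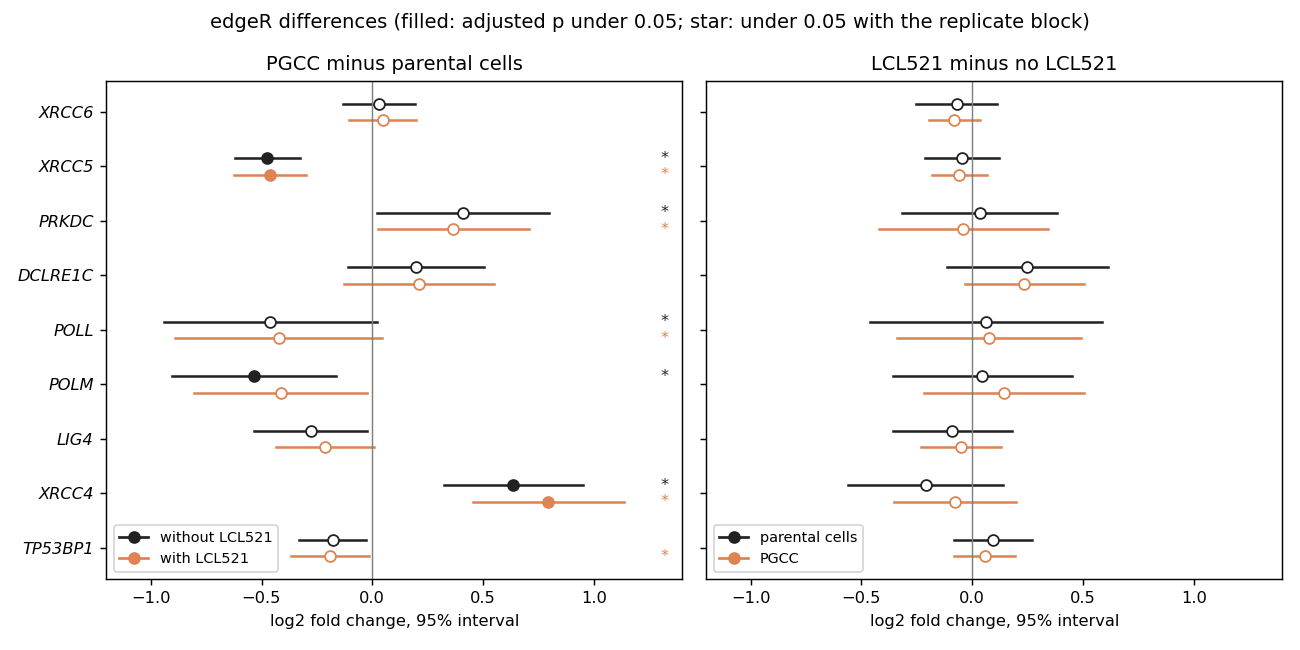
Log2 fold changes of 9 end joining genes from edgeR with 95% intervals, for PGCC minus parental cells on the left and for LCL521 on the right, where filled points have an adjusted p under 0.05 and stars mark those under 0.05 with the replicate block. XRCC5 (-0.47 and -0.46) and XRCC4 (0.64 and 0.79) were filled in both comparisons on the left, and no point was filled or starred on the right.

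The next question was whether 5 hours of LCL521 moved these genes. In parental cells 0 of the 9 were called, in edgeR as in DESeq2, and 0 had an unadjusted p under 0.05 in either, and 0 genes were called by either tool. At an unadjusted p under 0.05 there were 71 of 13277 genes in edgeR and 160 of 26918 in DESeq2, which keeps more low genes. With the replicate block 115 genes, 0.866%, were called and 0 members. In PGCC 0 of the 9 were called against 1 of 14151 genes (0.00707%) in edgeR, 4 in DESeq2 and 234 (1.65%) with the block, where 0 members were called, and 0 members had an unadjusted p under 0.05 in either tool. Estimates for members ran from -0.21 (XRCC4) to 0.25 (DCLRE1C) in parental cells and from -0.08 (XRCC6) to 0.24 (DCLRE1C) in PGCC on the log2 scale.

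DCLRE1C had the highest estimate in both populations. With LCL521 its libraries ranged from 9.96 to 16.5 CPM in parental cells and from 12.1 to 19.7 CPM in PGCC, which overlapped the ranges without it. It was higher with LCL521 in 4 of 6 pairs of parental cells (95% interval of the log2 fold change -0.11 to 0.61) and in 6 of 6 pairs of PGCC (-0.03 to 0.50). The edgeR adjusted p with the block was 0.342 and 0.108. XRCC4 was lower with LCL521 in 6 of 6 pairs of parental cells (log2 fold change -0.21, 95% interval -0.56 to 0.14), and in 2 of 6 pairs of PGCC.

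Whether the difference between PGCC and parental cells depended on LCL521 was tested as an interaction over all 24 libraries. No member passed in edgeR or had an unadjusted p under 0.05, nor did any of 14555 genes, of which 60 had an unadjusted p under 0.05, and 0 of 32207 passed in DESeq2, with 175 unadjusted. Member estimates ran from -0.06 (PRKDC) to 0.14 (XRCC4) on the log2 scale. The 95% interval was widest for POLL, from -0.65 to 0.68, and ran from -0.22 to 0.21 for both XRCC5 and XRCC6.

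Some end joining genes share a start region with another gene, and these neighbours were measured in the same libraries. ABHD13 starts 11 bases from LIG4 on the other strand and fell in PGCC by 0.52 on the log2 scale (SE 0.11, edgeR adjusted p = 0.0019), with LIG4 at -0.28. TMEM167A, which shares 366 bases with XRCC4 on the other strand, rose by 0.32 (SE 0.09, edgeR adjusted p = 0.0088), with XRCC4 at 0.64. MCM4, a subunit of the replicative helicase whose start lies 2 bases from that of PRKDC, rose by 0.95 (SE 0.27, edgeR adjusted p = 0.0091), with PRKDC at 0.41. DESI1, 23 bases from XRCC6, did not pass (-0.11, SE 0.08, edgeR adjusted p = 0.302), with XRCC6 at 0.03. With LCL521 the neighbours were at -0.48, 0.32, 1.04 and -0.09, and the first 3 passed (edgeR adjusted p = 0.0039, 0.0208 and 0.0034).

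The listed span of DPCD holds POLL whole on the other strand, and in GENCODE release 29 the 2 share 243 exon bases, 4.48% of those of POLL. DPCD fell by 0.28 (SE 0.10, edgeR adjusted p = 0.0314) and POLL was at -0.46. SUV39H2 overlaps DCLRE1C on the other strand over 6957 bases, with 159 shared exon bases, and was at 0.12 (SE 0.20, edgeR adjusted p = 0.639). Beside TP53BP1, TUBGCP4 was at -0.13 (SE 0.08, adjusted p = 0.211) and MAP1A at 0.44 (SE 0.38, adjusted p = 0.364, both by edgeR). The strand setting of the counting is not given in the sources used here, and without strand the reads of such overlaps cannot be told apart.

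For comparison, 30 other genes of break repair were read from the same fits. DNTT had 0 counts in every library. Of the 29 tested, 13 were higher and 7 lower in PGCC, or 69.0% of them, and 13 and 6 with LCL521, and 19 passed in the same direction in both. The share over all genes, higher and lower, was 23.1% and 24.3% without LCL521 and 25% and 23.9% with it. By role, 5 of 7 genes of end resection were higher and 1 was lower in each comparison. Resection cuts back 1 DNA strand at a broken end. Of 5 genes of alternative end joining, 3 were higher and 1 lower. Of 10 genes of break signalling and 53BP1 partners 3 were higher and 2 lower. Of 7 tested accessory factors of end joining 2 were higher and 3 lower, or 2 and 2 with LCL521.

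The 4 largest rises were those of POLQ, the polymerase of alternative end joining, at 2.30 without and 2.41 with LCL521 on the log2 scale (SE 0.20 and 0.17), of EXO1, a resection nuclease, at 2.28 and 2.38, of BRCA1, which promotes resection, at 1.89 and 2.00, and of MDC1, a scaffold at marked chromatin, at 1.04 and 0.99. The edgeR adjusted p-values of these 4 lay between 7.0e-08 and 4.8e-05. The 4 largest falls were those of C7orf49, a regulator of end joining also named CYREN, at -0.67 and -0.77, of FAM35A, the shieldin subunit SHLD2 that acts with 53BP1, at -0.65 and -0.71, of NBN, a subunit of the MRN complex that senses breaks, at -0.59 and -0.64, and of PAXIP1, a partner of 53BP1, at -0.54 and -0.56. Their edgeR adjusted p-values lay between 3.8e-05 and 0.0124. Other subunits of the same complexes were called in the other direction or were not called. In MRN, MRE11A was called higher, at 0.62 and 0.65. RAD50 was not called, at -0.26 and -0.21 (SE 0.19 and 0.21), with the same sign as NBN. In shieldin, MAD2L2 was called higher, at 0.49 and 0.56, and C20orf196 was not called, at -0.04 in each comparison. The largest rise among the end joining genes, that of XRCC4, was 0.64 and 0.79.

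**Figure D4:**
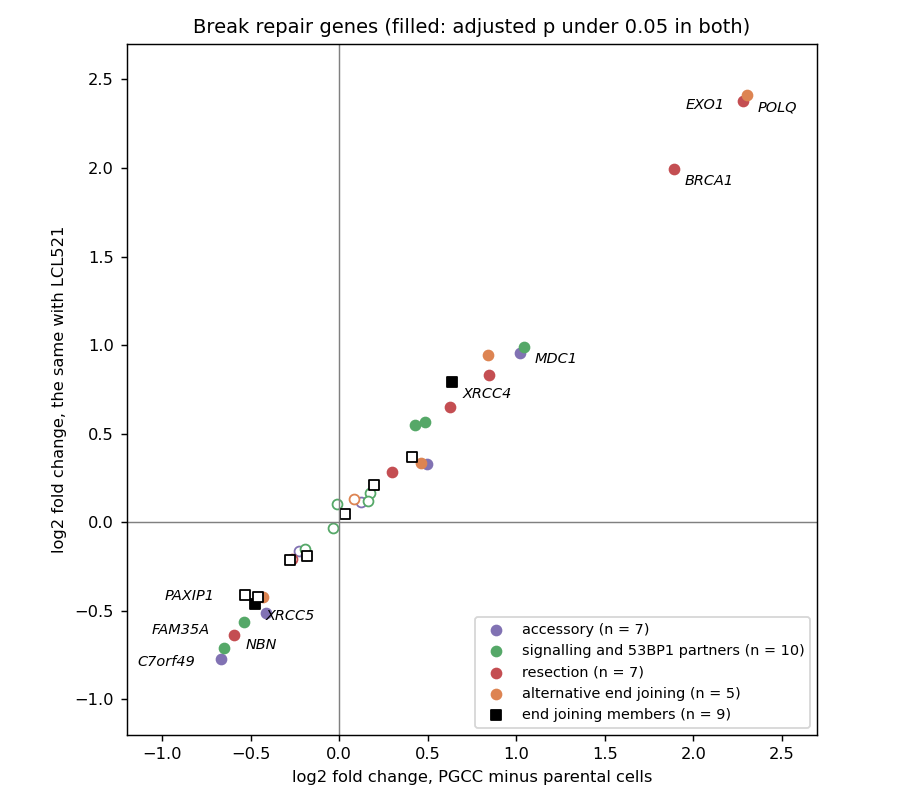
Log2 fold change between PGCC and parental cells without LCL521 (horizontal) and with LCL521 (vertical), which share no library, for 9 end joining genes (squares) and 29 other break repair genes (circles, by role), filled where the edgeR adjusted p was under 0.05 in both. XRCC4 and XRCC5 were the filled squares, and POLQ, EXO1 and BRCA1 lay at 1.89 or above on both axes. The libraries of both axes came from the same experiments, so the axes are not independent.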

How the data were processed

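For each of the 24 libraries the authors deposited whole-number read counts per gene, not normalized, with each gene's length, span and identifier. According to the study's methods, Novogene aligned reads with STAR and counted them with HTSeq, and the submitters' processing notes name hg19, CASAVA and DESeq2 too. The annotation release and the strand setting are not given in the sources used here. No other per-sample column was left out.

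Counts were filtered with edgeR's filterByExpr (minimum count 10, minimum total 15), scaled by TMM and tested with the quasi-likelihood test on the 12 libraries of each comparison, and on 24 for the interaction, with Benjamini-Hochberg adjustment over all genes tested and a threshold of 0.05 (R 4.3.3, edgeR 4.0.16, limma 3.58.1, DESeq2 1.42.0, Python 3.11.15, scipy 1.17.1). Printed CPM values were scaled by TMM over all 24 libraries. CPM values are over 14835246 to 19906601 counts per library. Libraries of the same condition differed by 4.69 to 110 times sampling noise (chi-square over its degrees of freedom). Ratios of 2 transcripts used counts per kilobase with 0.5 added and a two-sided exact permutation test over 924 divisions, adjusted over 8 tests. The paired form used 64 sign changes of the pair differences, adjusted in the same way. Standard errors were computed as the log2 fold change over the square root of F.

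Replicate numbers come from the labels, and the series' design text states that the 4 conditions were harvested in parallel in each of 6 experiments. Every same-numbered pair correlated above 0.1 in each comparison (lowest 0.171, medians 0.272 to 0.652), so the numbers were taken to pair the libraries. Between populations, 5 of 6 parental libraries without LCL521 and 3 of 6 with it correlated best with their own number. Between drug and no drug it was 6 of 6 in each population. The block is given where it changes a call. The members and lists were chosen with earlier results of these data known. All 10 members were named, with the 4 largest rises and 4 largest falls among the other break repair genes past the threshold in both population comparisons in the same direction, and genes within 2000 bases of a member with a mean of 10 counts or more. The procedure was tested on simulated data. Alternatives were DESeq2, RLE factors, library totals, no filter, at least 10 counts in every library, the replicate block, a gene length correction with and without the block, leaving out libraries 4 and 5 or each number in turn, and all 24 libraries in 1 fit. Some prostate luminal markers of the list are not reported here.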

Additional observations from a re-analysis of the deposited data

Results flagged for a closer look

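In the 36 groups of 6 libraries formed by 9 genes and 4 conditions, 2 libraries lay far from the others of their group. Chance flags about 1 in 20 groups, so 2 in 36 is near what chance gives. LIG4 was at 24.0 CPM in library 4 of parental cells, and the other 5 libraries lay between 15.4 and 17.3 CPM. TP53BP1 was at 76.2 CPM in library 4 of PGCC with LCL521, and the others lay between 60.0 and 64.9 CPM. Both libraries carry the number 4, which with number 5 stood apart from the rest in all 4 conditions.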

How the results depend on the processing

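The calls of XRCC4 and XRCC5 between PGCC and parental cells, with and without LCL521, held under every alternative run. The number of members called, 3 without LCL521, was 5 with the replicate block, 6 with the gene length correction, 6 with both, 5 without libraries 4 and 5 and 5 with all 24 libraries in 1 fit, where the share of all genes called, 47.4%, was 56.2%, 51.1%, 59.3%, 54.6% and 50.1%. DESeq2 without LCL521 called 4 of the 10 members it tested, against 27.3% of 29759 genes. With LCL521, 2 were called, against 4 in DESeq2, 5 with the block, 5 with the length correction, 7 with both, 4 without libraries 4 and 5 and 4 with all libraries in 1 fit, and the share of all genes, 48.9%, was 28.2%, 56.3%, 50.8%, 57.3%, 52.5% and 50.5%, that of DESeq2 over 29659 genes with more low genes kept. For LCL521 in parental cells the number of all genes called, 0, was 115 with the block and 260 with the block and length correction. For LCL521 in PGCC, 1 was called, against 4 in DESeq2, 234 with the block, 253 with block and length correction, 0 without libraries 4 and 5, 0 with all libraries in 1 fit and 0 to 1 with each number left out. The XRCC6 difference turned to -0.0439 with the length correction, -0.0374 with it and the block and -0.0266 without libraries 4 and 5, and ranged from -0.00266 to 0.0592 with each number left out. With LCL521 it turned to -0.000456 without a filter, -0.0107 with the length correction and -0.0113 with it and the block. The PRKDC to XRCC5 ratio fell to 0.76 on the log2 scale without libraries 4 and 5 (exact adjusted p = 0.0653). Leaving out each number for ratios was added after the data were seen, and the POLM to POLL difference with LCL521 then ranged from -0.219 to 0.163. The causes were not tested.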
